A study of Danio rerio with 12 samples.

Results

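Integrins, the ICAM-like gene *si:ch211-74m13.3* and the proteins that couple integrins to actin were examined in macrophage-lineage cells of the larval zebrafish head 2 h after a brain injury. Genes were taken by name, as every gene called *itga* or *itgb*, a talin (*tln1*, *tln2*), a kindlin (*fermt*), *vcl*, *pxn*, *zyx*, *ilk*, a parvin (*parv*), *lims1* or *ptk2*, together with *si:ch211-74m13.3*. The rule uses names and no expression value, but it was written with earlier results of these data known, and *si:ch211-74m13.3* enters by its own name. The rule found 54 genes of 22962 in the table, of which 43 had a mean of at least 1 CPM over the libraries and were tested. The other 11 fell under that level and are accounted for at the end.

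All larvae carried the mpeg1:GFP transgene, in which the *mpeg1* promoter labels microglia and peripheral macrophages alike. In the 2 hpi group (n = 3 libraries) the optic tectum was pierced with a fine metal pin at 4 dpf and heads were taken 2 h later. Sham larvae (n = 6 libraries) were anaesthetised and embedded at the same age but were not pierced. Each library was amplified from GFP+ cells sorted by FACS from the pooled heads of about 180 larvae. The labels list 6 injury libraries, of which 3 (replicates 3, 5 and 6) were set aside by the authors and are not analysed here. The paper gives high duplication, low mapping and poor clustering with the others as grounds, so the choice rested in part on expression values. The labels do not say whether pools came from separate clutches, so p-values measure only the spread between these pools.

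Integrins are cell surface receptors made of an alpha and a beta chain, which hold cells to extracellular matrix or to ligands on other cells. Talins and kindlins bind the beta chain tail and switch the receptor to its active state, and vinculin, paxillin, zyxin, parvins, ILK and the FAK family kinases link it to actin and to signalling. In leukocytes, integrins that contain the *itgb2* product bind ICAMs and those that contain the *itga4* product bind VCAM or fibronectin, which leukocytes use to adhere and migrate. In mammals, integrins that contain the *itgav* product with a beta partner such as the *itgb5* or *itgb8* product bind matrix ligands, apoptotic cell bridging proteins or latent TGF-beta.

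Libraries held 6754699 to 7156275 gene-assigned reads at 2 hpi and 6868772 to 8180104 in sham, and 3 reads corresponded to 0.349 to 0.466 CPM. *mpeg1.1*, the gene of the reporter promoter, lay at 2567 to 2749 CPM at 2 hpi and 2299 to 2731 CPM in sham. All 16 macrophage lineage markers were in the table, and 1 of them (*spi1b*) was higher at FDR<0.01 at 2 hpi. Neutrophil transcripts were abundant in every library, with 8445 to 11169 CPM summed over 8 markers at 2 hpi and 8228 to 11791 CPM in sham. Of these 8, *mmp13a* was the 1 called higher at FDR<0.01, with 2822 to 3753 CPM at 2 hpi and 1570 to 3006 CPM in sham. It makes up a large part of the sums, and the median log2FC (2 hpi over sham) of the 8 was -0.08. In sorted pools of this kind, fewer cells of a type and less RNA per cell cannot be told apart. Sham replicate 3 stood apart on the first principal component, and leaving it out changed none of the calls on the genes of this family.

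Of the adhesion genes, 4 differed between 2 hpi and sham at FDR<0.01 in limma with Benjamini-Hochberg adjustment over all 16347 genes tested. At 2 hpi 3 genes were upregulated (*si:ch211-74m13.3*, *itga4* and *fermt3b*) and 1 was downregulated (*itgb5*). The 3 upregulated genes were 6.98% of the 43 tested, beside 2.09% of all genes, and the 1 downregulated gene was 2.33%, beside 0.593% of all genes. Together they were 9.30% of those tested, a share that counts the separately named *si:ch211-74m13.3*, beside 2.68%, and the remaining 39 did not pass. At FDR<0.05, 5 genes were higher and 2 lower, with *itga5*, *itgae.2* and *itga3b* added, beside 3.55% of all genes higher and 1.96% lower (5.51% in all). The median log2FC (2 hpi over sham, of log2(CPM + 0.5)) of the 43 was 0.06, and that of all genes tested was -0.02, with 25 of the 43 fitted higher and 18 lower. In 7 of the 43 genes (16.3%, beside 5.68% of all genes) the lowest of the 3 values at 2 hpi exceeded the highest sham value, and in 2 (4.65%, beside 4.55%) the highest at 2 hpi was under the lowest in sham.

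**Figure D1:**
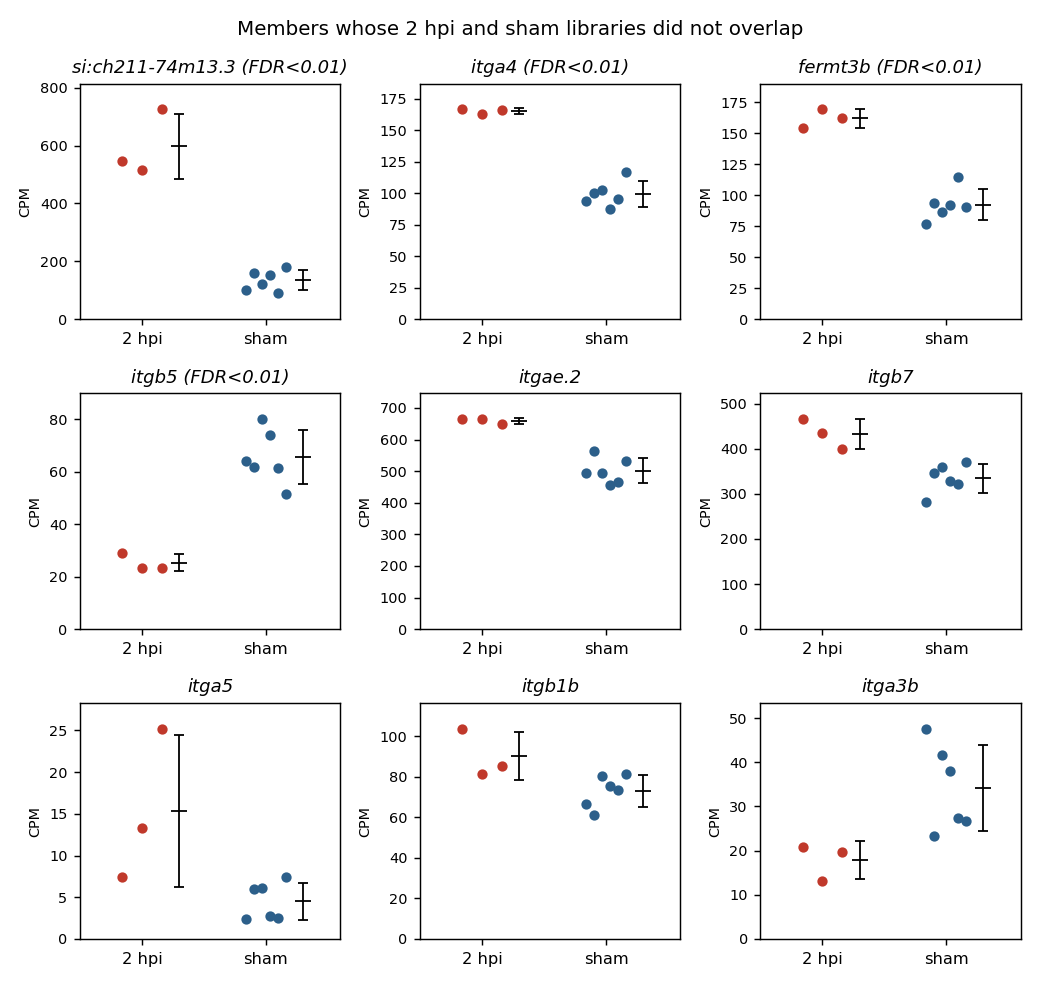
CPM in each library (points) for the 9 adhesion genes whose libraries did not overlap between 2 hpi (red, left, n = 3) and sham (blue, right, n = 6), with the mean and SD beside the points and each axis from 0. *si:ch211-74m13.3* lies at 517 to 727 CPM at 2 hpi and at 91.1 to 181 CPM in sham, and *itgb5* at 23.3 to 29.2 CPM at 2 hpi and at 51.4 to 80.2 CPM in sham.

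The largest change among the 43 was that of the ICAM-like gene. *si:ch211-74m13.3* (ENSDARG00000076144) is named *icam3* in the reference name table, and in humans ICAM proteins are counter-receptors of *itgb2* integrins on other cells. It had 548, 517 and 727 CPM at 2 hpi, against 91.1 to 181 CPM (median 138) in sham. Every library at 2 hpi was well above every sham library, the lowest at 2 hpi being far above the highest in sham. Its mean was 597 ± 113 CPM at 2 hpi and 135 ± 35.2 CPM in sham (SD, n = 3 and 6), a log2FC of 2.17 ± 0.18 (SE), or 4.50-fold (FDR = 5.95e-08, limma). No library decided the value, which was 2.02 to 2.26 when each was left out.

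Within sham the ICAM-like gene was lower in the 3 libraries with the higher microglial marker sums. Microglial markers (10 genes, among them *apoeb* and *p2ry12*) summed to 15077, 13906 and 14286 CPM in sham replicates 1, 3 and 5 and to 10282, 10271 and 10020 CPM in sham replicates 2, 4 and 6. *apoeb* alone gave 3653 to 6199 CPM of the sham sums. The ICAM-like gene had 103, 122 and 91.1 CPM in sham replicates 1, 3 and 5 and 158, 154 and 181 CPM in the other 3, so that it was lower where the markers were higher. It was also lowest and highest where the neutrophil marker sum was, in sham replicates 5 (8228 CPM) and 6 (11791 CPM). The split by microglial markers was drawn from these values, and no share over all genes is given. It was not particular to the ICAM-like gene. *itgb2* (899 to 1015 CPM, then 1031 to 1172 CPM) and *itgb1b.1* split the same way, and *itgam*, *itgb4* and *ptk2aa* (50.7 to 67.1 CPM, then 36.2 to 43.9 CPM) the opposite way. At 2 hpi the same marker sum was 15398, 11506 and 13396 CPM for replicates 1, 2 and 4, and the ICAM-like gene was at 517 CPM or more in each. None of these sums fell inside either sham range (10020 to 10282 or 13906 to 15077 CPM), so the groups could not be compared at matched sums. Of the 10 markers, *slc7a7* was the one called higher at 2 hpi. *itga4*, *fermt3b* and *itgb5* were also separated between 2 hpi and sham, again without libraries at matched marker sums. The part of the microglial or neutrophil share in the size of these changes was not tested.

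**Figure D2:**
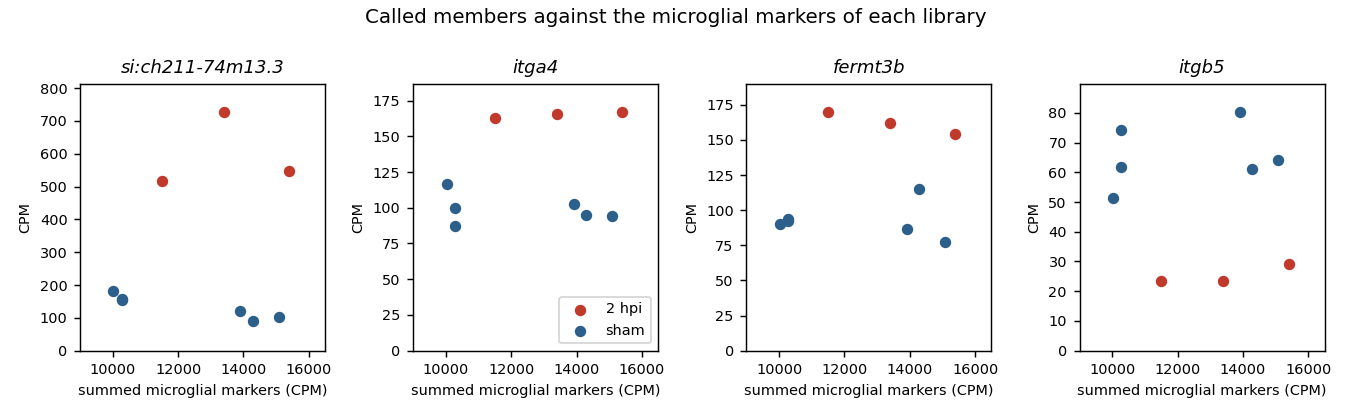
CPM of the 4 genes with FDR<0.01 (vertical axes, from 0) against the summed CPM of 10 microglial markers (horizontal axes, which do not start at 0) in each library, 2 hpi in red and sham in blue. Sham libraries fall at 10020 to 10282 CPM or at 13906 to 15077 CPM of marker sum, and in each panel the 3 libraries at 2 hpi (11506 to 15398 CPM of marker sum) lie apart from all sham libraries on the vertical axis.

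Among leukocyte integrins, 1 of 7 tested was upregulated, the group median log2FC being 0.13. *itga4*, whose product pairs with the *itgb1* or *itgb7* chain and binds VCAM and fibronectin, had 167, 163 and 166 CPM at 2 hpi, against 87.1 to 117 CPM (median 97.5) in sham. The libraries at 2 hpi were nearly equal and all above the sham range. The log2FC was 0.74 ± 0.13 (SE), or 1.67-fold (FDR = 0.00102, limma). T and NK lymphoid cells also use this chain. Of 7 lymphoid markers in the table, 6 were tested and *il2rb* was the one called higher at 2 hpi. The median log2FC of the 6 was 0.52, *lck* (-1.14) being the one fitted lower. The sum of the list was 78.1 to 149 CPM at 2 hpi and 38.3 to 94.9 CPM in sham. It was mostly *il2rb*, which had 63.3 to 118 CPM at 2 hpi and 25.8 to 61.1 CPM in sham. The part of lymphoid cells in the *itga4* result was not tested.

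The partner chain *itgb7* and the alpha chain *itgae.2*, which in mammals form with each other a receptor for E-cadherin, were also above every sham library without passing FDR<0.01. *itgae.2* had 666, 665 and 649 CPM at 2 hpi, against 457 to 563 CPM (median 494) in sham, with a log2FC of 0.40 ± 0.10 (SE, FDR = 0.0215, limma). *itgb7* had 467, 434 and 400 CPM at 2 hpi (399.7 in replicate 4), against 282 to 371 CPM (median 337) in sham, with a log2FC of 0.38 ± 0.11 (SE, FDR = 0.0547, limma). Both differences were small beside that of *itga4*. *itgae.2* passed the threshold in 1 of the 21 fits, DESeq2 on recovered reads (log2FC 0.40, FDR = 0.00231), and *itgb7* passed it in no alternative. With scaling by library size alone the log2FC was 0.28 for *itgae.2* (FDR = 0.106, limma) and 0.26 for *itgb7* (FDR = 0.192, limma).

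The other *itgae* copy did not separate the groups. *itgae.1*, 1 gene away from *itgae.2* in the RefSeq order, had 157, 154 and 189 CPM at 2 hpi, against 127 to 191 CPM (median 149) in sham (log2FC 0.13, 95% interval -0.16 to 0.42, FDR = 0.708, limma). The counts of both copies are uncertain where reads match both. The log2 ratio of *itgae.1* to *itgae.2* differed by -0.27 between 2 hpi and sham (exact permutation p = 0.190).

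The *itgb2* chain and *ITGAL*, which carries the name of its alpha partner for ICAM binding, were not called. *itgb2*, the beta chain shared by the classical leukocyte integrins, had 884, 1066 and 882 CPM at 2 hpi, against 899 to 1172 CPM (median 1023) in sham, with a log2FC of -0.13 (95% interval -0.36 to 0.09, FDR = 0.586, limma). *ITGAL*, the alpha chain that with *itgb2* forms the ICAM receptor of lymphocytes and myeloid cells, had 345, 331 and 348 CPM at 2 hpi, against 325 to 426 CPM (median 345) in sham, with a log2FC of -0.05 (95% interval -0.28 to 0.18, FDR = 0.867, limma). For *itgb2*, 2 of the 3 libraries at 2 hpi lay just under the lowest sham library, for *ITGAL* all 3 lay inside the sham range, and no value inside either interval comes near the log2FC of *si:ch211-74m13.3*. The last of the 7 was *itgam* (*itgam.2* in the reference name table), whose mammalian counterpart is the complement receptor chain of myeloid cells. It had 14.2 ± 2.23 CPM at 2 hpi and 21.3 ± 6.50 CPM in sham (SD, log2FC -0.52, 95% interval -1.09 to 0.05, FDR = 0.346, limma).

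Among integrins that bind RGD motifs or belong to platelets, 1 of 10 tested was downregulated, with a group median log2FC of 0.18. None was called higher in limma or the quasi-likelihood test, 1 (*itga5*) was in DESeq2, and 3 were higher at an unadjusted p under 0.05 in limma. *itgb5* (ENSDARG00000012942), a beta chain that pairs with the *itgav* product, had 29.2, 23.4 and 23.3 CPM at 2 hpi, against 51.4 to 80.2 CPM (median 63.0) in sham. All 3 libraries at 2 hpi were well under the lowest sham library. Its mean was 25.3 ± 3.33 CPM at 2 hpi and 65.5 ± 10.2 CPM in sham (SD, n = 3 and 6), a log2FC of -1.35 ± 0.18 (SE), with 0.393 of the sham level left (FDR = 3.11e-05, limma). When each library was left out the log2FC was -1.45 to -1.29.

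Its partner chain did not fall with it. *itgav* had 331, 300.3 and 361 CPM at 2 hpi, against 233 to 317 CPM (median 256) in sham, with overlapping groups and a log2FC of 0.33 (95% interval 0.08 to 0.58, FDR = 0.122, limma). The ratio of *itgb5* to *itgav* within a library was 0.0882, 0.0781 and 0.0645 at 2 hpi, against 0.221 to 0.309 (median 0.246) in sham. This ratio was chosen after the values were seen and is given without a test. Of the other beta chains that can join the *itgav* product, *itgb3a* had 33.3 ± 10.1 CPM at 2 hpi and 31.5 ± 6.78 CPM in sham (SD, log2FC 0.05, 95% interval -0.43 to 0.54). *itgb8*, whose product activates latent TGF-beta in mammals, was at 2.52 ± 1.05 CPM at 2 hpi and 0.925 ± 1.54 CPM in sham (SD, log2FC 1.55, 95% interval 0.10 to 2.99, FDR = 0.245, limma). It had 0 reads in sham replicates 3, 4 and 6, so this log2FC depends on the pseudocount. Sham replicate 2, at 3.95 CPM, was above every library at 2 hpi.

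*itga5*, the alpha chain of the classical fibronectin receptor, was low in all libraries and above every sham library at 2 hpi. It had 7.44, 13.4 and 25.2 CPM at 2 hpi, against 2.45 to 7.38 CPM (median 4.33) in sham. The 3 libraries at 2 hpi were spread widely, and the lowest of them was barely above the highest sham library. The log2FC was 1.61 ± 0.44 (SE) and did not pass FDR<0.01 (FDR = 0.0320, limma), although 2 of the 21 fits called it, DESeq2 (log2FC 1.76, FDR = 0.00434) and the replicate block described among the processing alternatives. Without 2 hpi replicate 4 it was 1.18 (FDR = 0.251).

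The *itgb1* copies, which encode the beta chain that pairs with *itga5*, *itga4* and the matrix-binding alpha chains, went different ways in their fitted values and none passed. *itgb1b* had 104, 81.7 and 85.3 CPM at 2 hpi, against 61.4 to 81.3 CPM (median 74.4) in sham, with no overlap by a narrow margin (log2FC 0.30, 95% interval -0.01 to 0.62, FDR = 0.313, limma). *itgb1b.1* had 156, 219 and 145 CPM at 2 hpi, against 168 to 240.1 CPM (median 206) in sham (log2FC -0.28, 95% interval -0.58 to 0.02, FDR = 0.341, limma). These copies and *itgb1b.2* stand next to each other in the RefSeq order, so that reads shared between them are uncertain. *itgb1a* (log2FC -0.04), *itgb1b.2* (0.46) and *itga8* (-0.79) were low, at 0.660 to 8.94 CPM in the mean of either group.

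Of the integrins for laminin, a basement membrane protein, all 3 tested were fitted lower (median log2FC -0.81) and none passed FDR<0.01 in limma or the quasi-likelihood test, with 1 (*itga3b*) at an unadjusted p under 0.05 and 1 called by DESeq2. *itga3b* had 20.8, 13.0 and 19.8 CPM at 2 hpi, against 23.4 to 47.6 CPM (median 32.8) in sham. The libraries at 2 hpi lay below the sham range, the highest of them close to the lowest sham library. The log2FC was -0.90 ± 0.25 (SE, FDR = 0.0339, limma), past the threshold in 2 of the 21 fits (DESeq2, -0.93, FDR = 0.00934, and the replicate block) and -0.69 (FDR = 0.183) without 2 hpi replicate 2. *itga3a* (41.3 ± 17.4 CPM at 2 hpi, 52.0 ± 11.8 CPM in sham) and *itgb4* (8.89 ± 4.28 CPM at 2 hpi, 16.3 ± 7.98 CPM in sham, SD) overlapped between groups. The 3 tested collagen-binding chains *itga1*, *itga10* and *itga11a* had log2FC of -0.19, 0.03 and 0.10, none of which passed in limma, edgeR or DESeq2 or had an unadjusted p under 0.05.

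**Figure D3:**
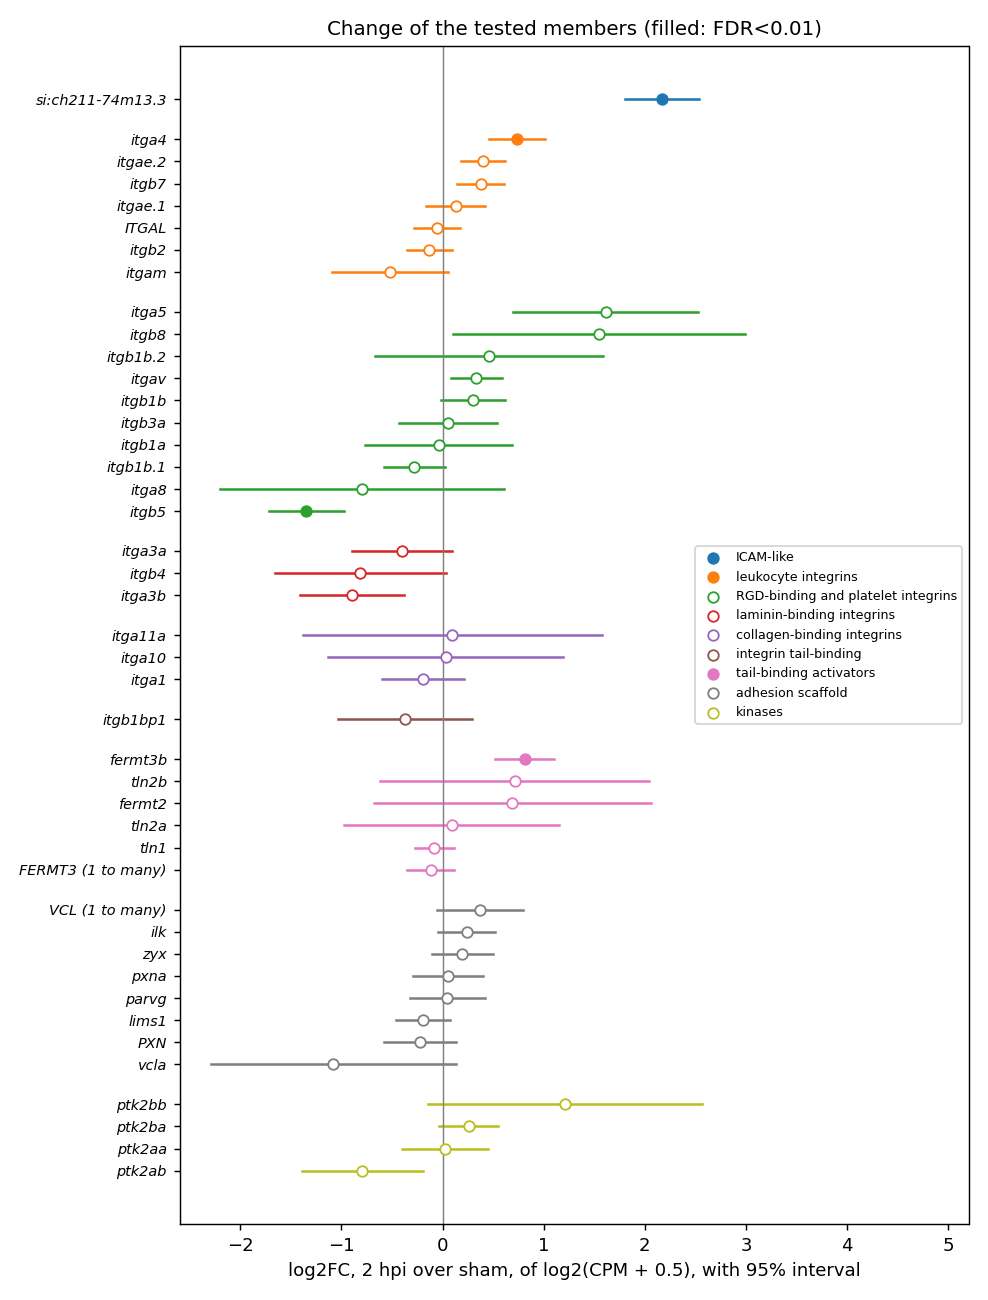
log2FC (2 hpi over sham, of log2(CPM + 0.5)) with its 95% interval for the 43 tested genes, grouped by role and coloured by group, with filled points for FDR<0.01. The 4 filled points are *si:ch211-74m13.3* at 2.17, *itga4* at 0.74, *fermt3b* at 0.81 and *itgb5* at -1.35, and the 3 laminin-binding chains lie at -0.90 to -0.40.

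Of the 6 tested talins and kindlins, which activate integrins from inside the cell, 1 was upregulated. *fermt3b* (ENSDARG00000030938), a copy of kindlin-3, the kindlin of blood cells, had 154, 170 and 162 CPM at 2 hpi (169.7 in replicate 2), against 77.0 to 115 CPM (median 91.4) in sham. The libraries at 2 hpi formed a tight group above the sham range. The log2FC was 0.81 ± 0.14 (SE), or 1.76-fold (FDR = 0.000657, limma), and 0.76 to 0.88 when each library was left out. Kindlin-3 is also abundant in thrombocytes. Of the other 8 thrombocyte markers in the table, 7 were tested. None was called in limma, edgeR or DESeq2, with 1 lower at an unadjusted p under 0.05 in limma. The 8 summed to 226 to 318 CPM at 2 hpi and 264 to 482 CPM in sham, mostly *f5*, and the others were at 15.9 CPM or less in every library. *vwf* was at 0 CPM in all 3 libraries at 2 hpi and at 0 to 0.233 CPM in sham. The part of thrombocytes in the *fermt3b* result was not tested.

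The other kindlin-3 copy and talin 1, both abundant, lay within the sham range or close to it. The gene given in the table as *FERMT3 (1 to many)* had 233, 223 and 226 CPM at 2 hpi (222.5 in replicate 2), against 231 to 271 CPM (median 238) in sham, with a log2FC of -0.12 (95% interval -0.35 to 0.12, FDR = 0.668, limma). *tln1*, the talin of leukocytes, had 897, 916 and 902 CPM at 2 hpi, against 889 to 1044 CPM (median 952) in sham, with a log2FC of -0.08 (95% interval -0.28 to 0.12, FDR = 0.737, limma). *tln2a*, *tln2b* and *fermt2* were near the floor, at 0.881 to 2.72 CPM in the mean of either group, with log2FC of 0.09 to 0.71 and wide intervals.

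The balance of the kindlin-3 copies within a library separated the groups. *fermt3b* over *FERMT3 (1 to many)* was 0.662, 0.763 and 0.717 at 2 hpi, against 0.334 to 0.494 (median 0.355) in sham, with no overlap. The ratio of *itga4* to *itgb7* was 0.357, 0.375 and 0.415 at 2 hpi and 0.265 to 0.333 in sham, and that of *itgb7* to *itgb2* was 0.528, 0.408 and 0.453 at 2 hpi and 0.292 to 0.357 in sham. *ITGAL* over *itgb2* was 0.310 to 0.395 at 2 hpi and 0.295 to 0.474 in sham, and overlapped. These ratios were picked after the values were seen, carry no test, and do not depend on the scaling of a library. They say how the balance of the transcripts changed, not which of the 2 changed.

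**Figure D4:**
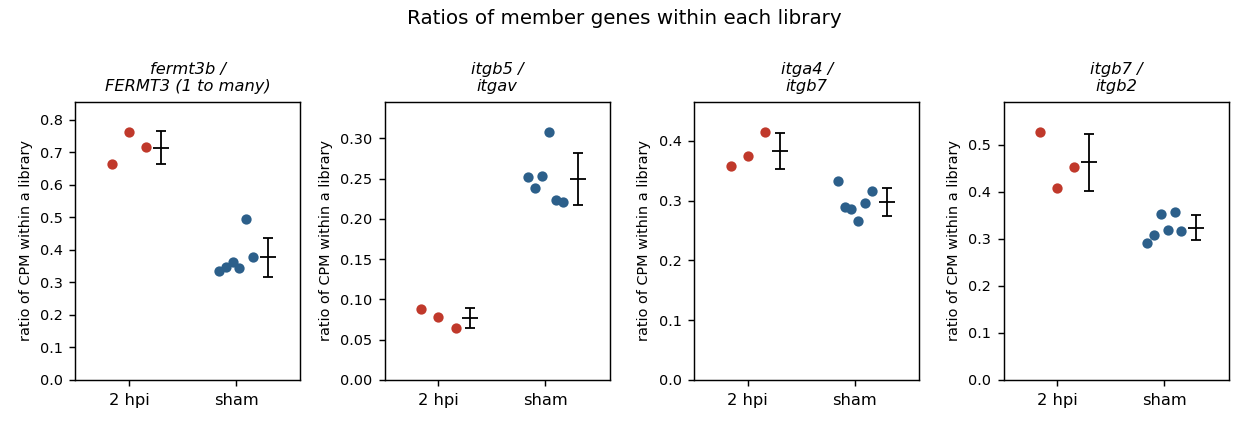
Ratio of the CPM of 2 genes within each library (points), 2 hpi in red on the left (n = 3) and sham in blue on the right (n = 6), with mean and SD and axes from 0. *fermt3b* over *FERMT3 (1 to many)* averages 0.714 at 2 hpi and 0.377 in sham, and *itgb5* over *itgav* averages 0.0769 at 2 hpi and 0.2496 in sham.

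Duplicated genes were also compared by a rule, over all 7 pairs of tested copies whose names differ in the last letter or tandem number. None of their log2 ratios differed between 2 hpi and sham after adjustment over the pairs by the exact permutation test, and none had an unadjusted p under 0.05. A single pair could not have reached less than 0.0833 after adjustment. The smallest p was that of the FAK copies, with a *ptk2aa* over *ptk2ab* log2 ratio 0.82 higher at 2 hpi than in sham (two-sided exact permutation p = 0.0595, adjusted p = 0.333).

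No scaffold gene passed among 8 tested and no kinase among 4, in limma, in the quasi-likelihood test of edgeR or in DESeq2. At an unadjusted p under 0.05 in limma there were 0 scaffold genes and 1 kinase (*ptk2ab*). *ilk*, which links beta chain tails to parvins, had 220, 166 and 176 CPM at 2 hpi (219.6 in replicate 1), against 129 to 181 CPM (median 159) in sham (log2FC 0.24, 95% interval -0.04 to 0.52, FDR = 0.392, limma). *lims1*, the PINCH adaptor bound to ILK, had 154, 137 and 143 CPM at 2 hpi, against 139 to 198 CPM (median 168) in sham (log2FC -0.19, 95% interval -0.46 to 0.08, FDR = 0.483, limma). Groups overlapped in both. The other scaffold genes, which were zyxin (*zyx*), paxillin (*PXN*, *pxna*), vinculin (*VCL (1 to many)*, *vcla*) and *parvg*, had log2FC of -1.08 to 0.37, the lowest in *vcla*, which had 0 reads in at least 1 library.

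Of the kinases, *ptk2aa* (FAK) had 49.4 ± 11.4 CPM at 2 hpi and 48.7 ± 11.2 CPM in sham (SD, log2FC 0.03, 95% interval -0.40 to 0.45), and *ptk2ab* had 22.7 ± 9.80 CPM at 2 hpi and 39.2 ± 14.4 CPM in sham (log2FC -0.79, 95% interval -1.39 to -0.20, FDR = 0.126, limma). *ptk2ba*, a copy of PYK2, the FAK relative of leukocytes, had 152 ± 21.3 CPM at 2 hpi and 127 ± 17.2 CPM in sham (log2FC 0.26, FDR = 0.366, limma), and its copy *ptk2bb* was at 1.94 CPM at 2 hpi and 0.586 CPM in sham. *itgb1bp1*, whose product binds the beta-1 tail, had 10.9 ± 4.60 CPM at 2 hpi and 13.6 ± 3.15 CPM in sham (log2FC -0.37, FDR = 0.614, limma). None of these separated the groups.

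Sham libraries gave the spread against which these changes stand. The coefficient of variation over the 6 sham libraries had a median of 18.2% over the 43 adhesion genes and of 28.7% over all genes tested. At a mean level of 20 CPM or more it was 13.5% over 28 adhesion genes and 16.7% over 6793 genes. It was lowest in *tln1* at 5.65%, and the intervals of the log2FC were generally wider in the 15 adhesion genes under 20 CPM.

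Genes that act with integrins were taken from 3 lists, 128 of whose genes were tested. At 2 hpi 7 were upregulated and 1 was downregulated, or 6.25% of the 128, with a median log2FC of 0.01. Over all genes tested 2.68% were called, 2.09% higher and 0.593% lower. The lists were chosen with earlier results known. Among 21 genes of integrin activation, *cyth1a*, a cytohesin that binds the *itgb2* tail in humans, was the one called, with 150, 134 and 127 CPM at 2 hpi (150.3 in replicate 1) and 69.6 to 114 CPM in sham (log2FC 0.73, FDR = 0.00519, limma). It was called in 14 of 21 fits, with FDR up to 0.0485. Rap1 signalling genes on this list did not pass. Some exchange factors for Rap or Ras on it did not overlap between groups. Over all genes tested, 5.68% lay wholly higher at 2 hpi and 4.55% wholly lower. *rapgef1a* had 199 to 253 CPM at 2 hpi and 277 to 331 CPM in sham (FDR = 0.0421, limma). *rasgrp2* had 104 to 160 and 167 to 235 CPM (FDR = 0.0840, limma). *rasgrp4* was higher, at 179 to 232 and 137 to 172 CPM (FDR = 0.0863, limma). These exchange factors were named after their values were seen. *plek* (131 to 164 and 92.2 to 111 CPM, FDR = 0.0291, limma) did not overlap either. The same held for *dok1b* (68.8 to 80.7 and 43.0 to 67.1 CPM, FDR = 0.233, limma).

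Of 71 focal adhesion partners tested, 5 were upregulated and 1 was downregulated. *cass4*, a scaffold of the Cas family that FAK kinases phosphorylate, had 142, 203 and 173 CPM at 2 hpi and 57.9 to 89.0 CPM in sham (log2FC 1.19, FDR = 4.4e-05, limma). *bcar1*, the founding Cas scaffold, had 4.56, 4.04 and 6.45 CPM at 2 hpi and 8.61 to 19.3 CPM in sham (log2FC -1.30, FDR = 0.0170, limma) and did not pass. It was named after its values were seen. The other Cas scaffold on the list, *nedd9*, had 7.45 to 12.02 CPM at 2 hpi and 2.68 to 12.2 CPM in sham and overlapped (log2FC 0.48, FDR = 0.634, limma).

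*plaua*, a urokinase that cuts plasminogen at the cell surface, had 41.8, 52.8 and 47.4 CPM at 2 hpi and 10.5 to 18.9 CPM in sham (log2FC 1.65, FDR = 9.9e-05, limma). *arhgef7b*, a Rac and Cdc42 exchange factor of focal complexes, had 51.8, 38.2 and 50.4 CPM at 2 hpi and 9.28 to 23.9 CPM in sham (log2FC 1.27, FDR = 0.00450, limma). The tetraspanin *tspan36* had 1895, 1716 and 1794 CPM at 2 hpi and 1126 to 1464 CPM in sham (log2FC 0.55, FDR = 0.00143, limma). The myeloid Src family kinase *hck* had 975, 831 and 871 CPM at 2 hpi and 571 to 717 CPM in sham (log2FC 0.49, FDR = 0.00581, limma). *hck* was called in 12 of 21 fits (FDR up to 0.0624), *arhgef7b* in 17 and *tspan36* in 19, and *cass4* and *plaua* in all 21. *pik3cd*, the leukocyte PI3K catalytic subunit, had 85.8, 98.3 and 94.3 CPM at 2 hpi and 111 to 176 CPM in sham (log2FC -0.65, FDR = 0.00977, limma). It sat just inside the threshold, and 9 of the 21 fits called it.

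Of 36 integrin ligands and sheddases tested, 1 passed. *adam8a*, a leukocyte metalloprotease with a disintegrin domain, had 275, 290 and 228 CPM at 2 hpi (289.6 in replicate 2) and 99.4 to 178 CPM in sham (log2FC 1.08, FDR = 0.000176, limma). With *adam8a* counted, the 36 were split evenly, with 18 fitted higher and 18 fitted lower.

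The 11 adhesion genes not tested were *itgb3b*, *itgb6*, *itga2.2*, *itga11b*, *itga6a*, *itga6b*, *itga9*, *ITGB1BP2*, *parvaa*, *parvb* and *fermt1*. Each averaged under 1 CPM, with means over the libraries of 0.249 CPM (*fermt1*) to 0.947 CPM (*parvaa*) and at most 30 reads in any library. In the limma fit without a filter, over 22962 genes, none of the 11 passed FDR<0.01 and 1 (*parvb*) had an unadjusted p under 0.05. *parvb* was at 1.82, 1.71 and 1.76 CPM at 2 hpi and 0.141 to 1.05 CPM in sham, with no overlap (log2FC 1.26, FDR = 0.170, limma without a filter), and it stands next to *parvg* in the RefSeq order.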

How the data were processed

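GFP+ cells of 3 injury (2 hpi) and 6 sham pools were measured by RNA-seq (Ovation V2 amplification, TruSeq libraries). Per the labels and submitters' processing notes, cutadapt 1.9 trimmed the reads, STAR 2.5.2b aligned them to GRCz10, featureCounts 1.5.1 counted them per gene and edgeR 3.20.1 scaled the counts. The annotation release was not given in the sources used here. The deposited signal values are gene-level CPM that the authors scaled with TMM factors. Amplified reads are not independent molecules, so intervals cover counting and pool spread only. The deposited table also holds the authors' own comparison columns (mean level, fold change, p and FDR), which were not used. No column of an unknown sample was present.

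Genes averaging 1 CPM or more over 9 libraries were tested with limma 3.58.1 (trend) on log2(CPM + 0.5), condition only, with Benjamini-Hochberg adjustment over 16347 genes and FDR<0.01. Fold changes on this scale understate those of low genes. Because every value was a whole multiple of 1 read (100% of values within 0.02 of a whole read), reads were recovered and tested with the quasi-likelihood test of edgeR 4.0.16, which called 336 genes higher and 60 lower beside 341 and 97 in limma, and with DESeq2 1.42.0. Other alternatives were scaling, filters, pseudocounts of 0.1 and 1, a replicate block and leaving out each library. Scripts were tested on simulated data. No 2 libraries agreed within sampling noise.

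Values per library are given for genes with FDR<0.01, genes whose groups did not overlap, the 12 with the highest mean, and pathway genes with FDR<0.01. Members and lists were chosen with earlier results of these data known. Of 54 identifiers, 53 matched the name table. Levels of different genes were not corrected for length.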

Additional observations from a re-analysis of the deposited data

Results flagged for a closer look

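In 7 of 43 tested adhesion genes, 1 sham library stood far from the other 5 by Dixon's gap test at the 95% level. Chance passes it in about 1 of 20 groups if values are normally distributed. It was applied to CPM without logs, where skew also gives such gaps, and in all 7 the flagged library was the highest. No share over all genes is given, so 7 of 43 cannot be read against chance. *ITGAL* was at 426 CPM in sham replicate 5 and at 325 to 359 CPM in the others. *PXN* was at 86.7 CPM in sham replicate 3 and at 56.2 to 66.9 CPM in the others. *parvg* was at 78.8 CPM in sham replicate 1 and at 49.9 to 60.7 CPM in the others. The other 4 were low genes, with *itga11a* at 12.3 CPM in sham replicate 6 (others up to 2.79), *itgb8* at 3.95 CPM in sham replicate 2 (others up to 0.986), *tln2b* at 2.87 CPM in sham replicate 3 (others up to 1.102) and *ptk2bb* at 1.97 CPM in sham replicate 5 (others up to 0.735). The causes were not tested, and none of the 7 genes was called between 2 hpi and sham.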

How the results depend on the processing

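*si:ch211-74m13.3*, *itga4*, *fermt3b* and *itgb5* were called in all 21 fits, with the highest FDR at 0.00991 (*itga4*). The number of adhesion genes called higher was 3, and 5 in DESeq2 or at FDR<0.05. The number called lower was 1, and 2 in DESeq2, with the replicate block or at FDR<0.05. Leaving out each library gave 3 to 3 higher and 1 to 1 lower. The 0 to 0 paralogue pairs passing with a library left out say nothing of stability, since a single pair could not pass even with all 9. Labels share replicate numbers across groups, and same-numbered libraries correlated in their deviations at r = 0.124, 0.109 and 0.0244 (across genes, which are not independent). Injury replicates 1 and 2 each correlated best with the sham library of their own number. Injury replicate 4 correlated best with sham replicate 3 (r = 0.0277), by a narrow margin over its own number. As the match was not seen in all 3, the numbers were not taken as pairs. The study's methods describe same-day preparation of sham and injured samples for a qPCR comparison that reused some of these samples, but no source used here ties the replicate numbers to those days. With the replicate block 4 adhesion genes were called higher and 2 lower, adding *itga5* (FDR = 0.00688) and *itga3b* (FDR = 0.00818), and *itgae.1* reversed to -0.00887. Over all genes the block called 474 higher and 145 lower, beside 341 and 97 without it. Sham replicates 3, 5 and 6 have no injury library of their number and add nothing to its contrast. Its log2FC values therefore rest on replicates 1, 2 and 4 of both groups. Scaling by library size alone shifted the median of all genes by -0.11. For the pathway genes, all alternatives were chosen after seeing the data. The 7 called higher became 4 with library size alone, and 3 to 7 when each library was left out, 3 of them without injury replicate 1 or 4 (*cyth1a*, *hck*, *arhgef7b* and *tspan36* lost in each). The 1 called lower (*pik3cd*) became 0 with RLE or upper quartile scaling, no filter, a pseudocount of 0.1 or the quasi-likelihood test, 0 to 1 with a library left out, 2 in DESeq2 and 3 with library size alone. The causes were not tested. With 3 libraries at 2 hpi, genes under about 20 CPM had intervals too wide to show small differences.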
